A study of Saccharomyces cerevisiae with 6 samples.

Results

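The general transcription factors and Mediator of RNA polymerase II form a list of 46 yeast genes. They were chosen by function (TFIID, the TATA-binding protein and its regulators, TFIIA, TFIIB, TFIIE, TFIIF, TFIIH, Mediator and a pair of polymerase core subunits), and a gene was described where it had a value on at least 2 of the 6 arrays. In the whole series this held for 655 named genes, whose share of all named genes is not given here. It held for 25 of the 46. Of these, 14 had a value on all 6 arrays and entered the tests over 444 features, and 21 had a value on at least 1 array of each pool. By role, the measured genes were 6 of 13 TFIID genes, 3 of 4 for the TATA-binding protein and its regulators, and 2 of 2 for TFIIA. Further, 1 of 2 TFIIE genes, 2 of 2 TFIIF genes, 4 of 6 genes of the TFIIH core, 2 of 3 of the TFIIH kinase module and, split by module, 3 of 5 Mediator head and 2 of 5 Mediator middle genes were measured. No value was present for SPT15, SUA7, RGR1, RPO21, RPB11, TAF1, TAF2, TAF5, TAF7, TAF8, TAF10, TAF13, TFA1, TFB4, SSL2, KIN28, MED4, MED8, MED11, SRB7 and ROX3.

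The samples are 3 pools of Saccharomyces cerevisiae DamP strains, haploids derived from BY4741 and BY4742. In a DamP strain a resistance cassette is inserted after the stop codon of an essential gene, so that its mRNA carries a long extended 3' end with the barcode of the strain. Each pool was crossed by the GIM protocol with 1 deletion strain, either YEL068C (the reference), NAM7 or NMD2, and grown for 18 generations under G418 and nurseothricin. All strains of all 3 pools, the reference included, thus carry a DamP allele and a deletion. Each pool comes from 1 cross and was read on 2 arrays that the series text calls technical repeats, so every error given below is technical.

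NAM7 (also UPF1) encodes the RNA helicase at the centre of nonsense-mediated mRNA decay, and NMD2 (UPF2) encodes its activating partner. This pathway degrades mRNAs whose translation ends far from the poly(A) tail, which includes mRNAs with an artificially long 3' end. The proteins encoded by the genes described here assemble at promoters. TFIID brings the TATA-binding protein to DNA, TFIIA and TFIIB stabilise it, TFIIF escorts the polymerase, TFIIE recruits TFIIH, TFIIH opens the DNA and phosphorylates the polymerase tail, and Mediator relays signals from activators. What was measured is the extended mRNA of each gene's DamP allele, not the activity of these factors.

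Each value compares, as a log2 ratio, the RNA and genomic DNA signals of one barcode. It was centred on the median, on its array, of the 444 features with a value on all 6 arrays, called the array median here. Zero is thus that median, which lay 0.04 to 0.275 above the median of all values on an array. A difference of 1 is a doubling on the assumption that the logarithm has base 2. A change in RNA and a change in the DNA signal of the same barcode cannot be told apart in this ratio. The direction is likely RNA over DNA. In the deposited sign, 11 measured genes from a list of 40 known for abundant mRNAs had a median of -3.55 in the reference pool, and after the sign was turned all 11 lay above 0. With the other direction every rise given here would be a fall, and every level, rank and share above the median would be turned about as well. The arrays held 658 to 798 probe values, and 16 to 25 of the 25 genes were valued on a given array. No barcode of YEL068C, NAM7 or NMD2 itself had a value on any array. The barcodes mark DamP strains of essential genes, so these values cannot check the deletions either way.

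In the reference pool these genes had mostly low ratios in the direction taken here, and would have mostly high ones, with TFG1 the lowest of them, if it were the other. Their median was -0.79 over 14 genes, where the middle 50% of all features ran from -0.95 to 0.96, and 5 of the 14 lay above the array median. TFG1, the largest subunit of TFIIF, had the highest ratio at 0.83 ± 0.10 (SD, n = 2 arrays here and below) and ranked 125 of 444. MOT1, the ATPase that strips the TATA-binding protein from DNA, followed at 0.70 ± 0.26. Next were NCB2 at 0.44 ± 0.54 and TOA1 at 0.42 ± 0.44, whose order is not resolved by that spread, and TAF12 lay at the array median (0.00 ± 0.12). All 6 measured TFIIH genes were below the median. TFB2 of the TFIIH core stood at -2.10 ± 0.40 (rank 430 of 444) and CCL1, the cyclin of the TFIIH kinase, at -2.05 ± 0.03 (rank 426), which differ by less than the spread. RAD3, SSL1 and TFB3 lay between -1.42 and -0.99, and TFB1 was the highest of the TFIIH genes at -0.59 ± 0.15. SRB4 of the Mediator head was at -1.27 ± 0.47. In the NAM7 and NMD2 pools the median of the 14 genes was -0.52 and -0.59, with 4 of 14 above the array median in each. RAD3, TFB2, CCL1 and SRB4 were then at NAM7 ranks 413, 421, 419 and 422 and at NMD2 ranks 420, 433, 432 and 411.

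**Figure D1:**
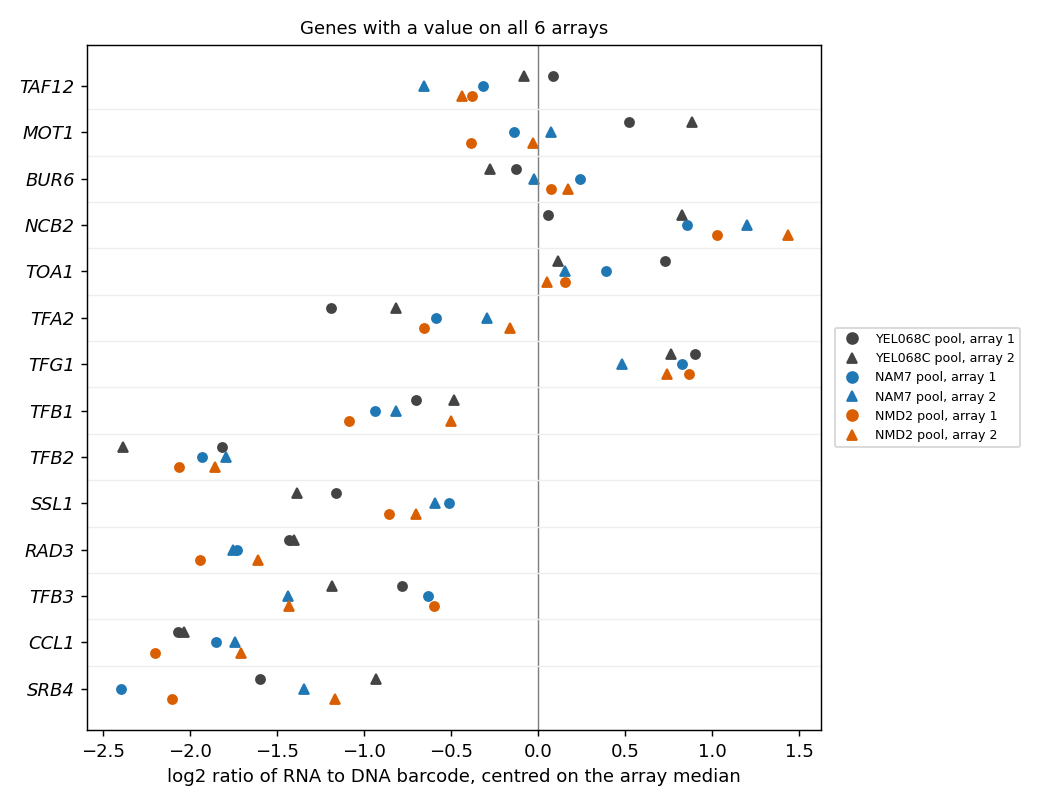
Centred log2 ratio of RNA to DNA barcode (x axis) for the 14 genes with a value on every array (y axis). Points are single arrays, with dark grey for the YEL068C pool, blue for NAM7 and orange for NMD2, and circles and triangles for the arrays numbered 1 and 2. The 6 TFIIH genes, TFA2 and SRB4 lie left of 0 on all arrays, while TFG1, NCB2 and TOA1 lie right of it.

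Setting the mean of the NAM7 and NMD2 pools against the YEL068C pool addresses how extended mRNAs of these factors respond to loss of nonsense-mediated decay. The 14 genes went both ways, with 6 above 0 and 8 below 0, and their median difference was -0.07 against -0.00 for all features, of which 50.0% lay above 0. The 4 largest positive differences belonged to NCB2, SSL1, TFA2 and BUR6, and the 4 largest negative ones to MOT1, SRB4, TAF12 and RAD3. By limma without a term for the replicate number, 0 of the 14 passed an adjusted p of 0.05, against 4.05% of all 444 features. At an unadjusted p under 0.05 there were 2 of the 14, MOT1 and SSL1, and 118 features in all. Same-numbered arrays deviated together, and with the replicate number as a block 8 of the 14 passed, 4 higher (BUR6, NCB2, TFA2 and SSL1) and 4 lower (TAF12, MOT1, RAD3 and SRB4). The background in that fit was 59.9% of features, 29.7% higher and 30.2% lower, so 8 of 14 is near the share of all genes and is no result about these factors. The mutant arrays lay wholly on one side of both reference arrays for 7 of the 14, the same genes without SRB4, against 41.7% of all features. Leaving out 1 array leaves its pool with a lone array that is assumed to vary like the others, and without a NAM7 array every gene had the same SE (0.17), so a gene's own spread did not enter. Passes in these fits are therefore not counted, and only the range of the blocked difference is given. Without 1 array it ran from 0.49 to 0.89 for NCB2, 0.54 to 0.62 for TFA2 and 0.48 to 0.74 for SSL1. For BUR6 the range was 0.24 to 0.39. MOT1 ran from -0.86 to -0.78, TAF12 from -0.51 to -0.39, SRB4 from -0.65 to -0.32 and RAD3 from -0.43 to -0.26.

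**Figure D2:**
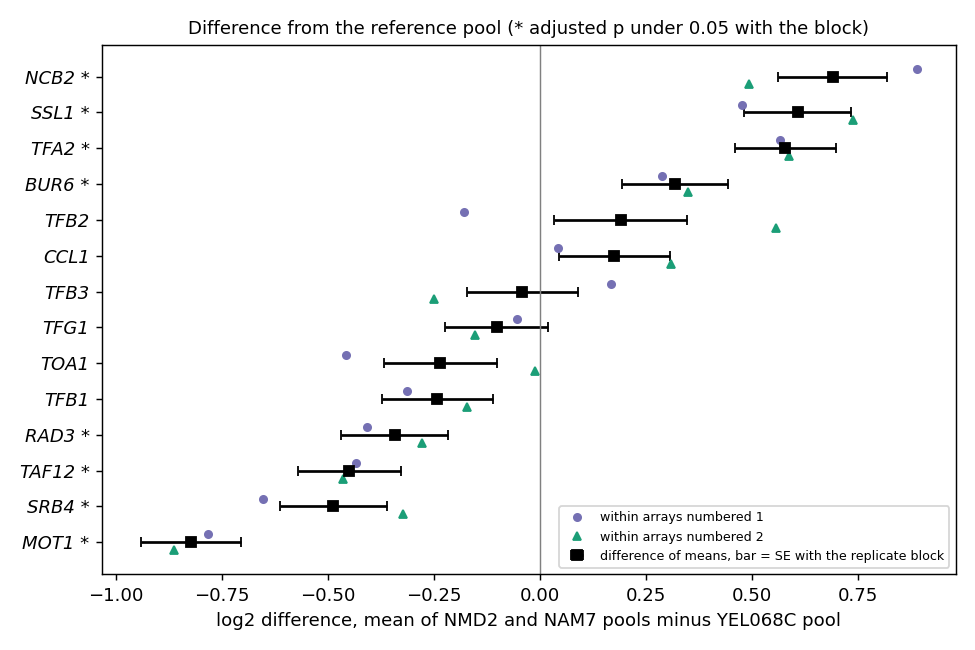
Log2 difference between the mean of the NMD2 and NAM7 pools and the YEL068C pool (x axis) for 14 genes, ordered by size. Squares are differences of means with the SE of the blocked fit, circles and triangles the difference within arrays numbered 1 and 2, and asterisks mark genes past an adjusted p of 0.05 with the block. The order runs from NCB2 at 0.69 to MOT1 at -0.82, and TFB2 and TFB3 have the 2 array sets on opposite sides of 0.

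All 3 measured regulators of the TATA-binding protein passed with the block, 1 lower and 2 higher, where 59.9% of all features passed. MOT1 read 0.52 and 0.89 on the YEL068C arrays, -0.14 and 0.08 on the NAM7 arrays, and -0.39 and -0.03 on the NMD2 arrays. Both reference arrays were above all 4 mutant arrays. The difference was -0.82 (SE 0.23, limma adjusted p = 0.0894), and with the block MOT1 fell (SE 0.12, limma adjusted p = 9.57e-05). NCB2, which encodes the beta subunit of the TATA-binding-protein repressor NC2, went the other way. It read 0.06 and 0.83 in the reference, 0.86 and 1.20 on the NAM7 arrays, and 1.03 and 1.44 on the NMD2 arrays. The groups did not overlap, although the higher reference array came close to the lower NAM7 array. NCB2 differed by 0.69 (SE 0.29, limma adjusted p = 0.194) and rose with the block (SE 0.13, limma adjusted p = 0.000622). The reference arrays set its size, since without the block it was 0.31 when YEL068C replicate 1 was left out and 1.08 without YEL068C replicate 2. BUR6, which encodes the alpha subunit of the same repressor, read -0.13 and -0.28 in the reference, 0.24 and -0.03 on the NAM7 arrays, and 0.08 and 0.17 on the NMD2 arrays. All 4 mutant arrays were above both reference arrays, by a small margin. The difference of 0.32 passed with the block (SE 0.13, limma adjusted p = 0.0425) and not without it (SE 0.20, limma adjusted p = 0.351). It was also lost with the block when arrays were not centred, when they were scaled to equal spread and when genes with missing arrays were tested as well.

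TFIIH, the helicase and kinase complex that opens the promoter, had 6 measured genes, of which 1 rose and 1 fell with the block, against 29.7% of all features higher and 30.2% lower. SSL1, a subunit of the TFIIH core, read -1.16 and -1.39 in the reference, -0.51 and -0.60 on the NAM7 arrays, and -0.86 and -0.70 on the NMD2 arrays. Its reference arrays were the lowest, and the NAM7 arrays lay above the NMD2 arrays. The difference was 0.61 (SE 0.20, limma adjusted p = 0.12), and SSL1 rose with the block (SE 0.13, limma adjusted p = 0.0012). RAD3, a DNA helicase that also serves nucleotide excision repair, read -1.43 and -1.41 in the reference, -1.73 and -1.76 on the NAM7 arrays, and -1.95 and -1.61 on the NMD2 arrays. All mutant arrays were below both reference arrays, which were nearly equal to each other. The difference of -0.34 passed with the block (SE 0.13, limma adjusted p = 0.0318) and not without it (SE 0.21, limma adjusted p = 0.321). It did not pass with the block once arrays were scaled to equal spread.

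The other TFIIH genes did not pass in either fit. TFB1, a core subunit, read -0.70 and -0.49 in the reference, -0.94 and -0.82 on the NAM7 arrays, and -1.09 and -0.50 on the NMD2 arrays. The NAM7 arrays were below both reference arrays while the NMD2 arrays overlapped them, and the difference was -0.24 (limma adjusted p = 0.127 with the block). TFB1 passed as lower with the block when arrays were not centred. TFB2, another core subunit, differed by 0.19 (limma adjusted p = 0.311 with the block). TFB2 read -1.82 and -2.39 in the reference, so that its difference was -0.18 within arrays numbered 1 and 0.56 within arrays numbered 2. The NAM7 arrays of TFB2 read -1.93 and -1.80 and its NMD2 arrays -2.07 and -1.86, and 3 of these 4 values lay between the reference values. Without YEL068C replicate 1 TFB2 passed as higher with the block. CCL1 read -2.07 and -2.04 in the reference, -1.85 and -1.75 on the NAM7 arrays, and -2.21 and -1.71 on the NMD2 arrays. Its NMD2 arrays lay on either side of the reference, and the difference was 0.18 (limma adjusted p = 0.269 with the block). TFB3, which tethers the kinase to the core, differed by -0.04 (limma adjusted p = 0.801 with the block), with 0.17 and -0.25 within the array sets numbered 1 and 2. Its arrays separated by number rather than by pool, at -0.79, -0.64 and -0.60 on the arrays numbered 1 and -1.19, -1.44 and -1.43 on those numbered 2.

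TFA2, the small subunit of TFIIE, rose with the block, whereas the fully measured genes of TFIIA and TFIIF did not pass. TFA2 read -1.19 and -0.82 in the reference, -0.59 and -0.30 on the NAM7 arrays, and -0.66 and -0.16 on the NMD2 arrays. Every mutant array was above both reference arrays, and the difference was nearly equal in the array sets (0.57 and 0.59). The mean difference was 0.58 (SE 0.25, limma adjusted p = 0.201, SE 0.12 and adjusted p = 0.0012 with the block). TOA1, the large subunit of TFIIA, read 0.73 and 0.12 in the reference, 0.39 and 0.16 on the NAM7 arrays, and 0.16 and 0.05 on the NMD2 arrays. The reference arrays enclosed 3 of the 4 mutant arrays, and the difference of -0.24 did not pass (limma adjusted p = 0.584, 0.143 with the block). Without YEL068C replicate 1 the TOA1 difference was 0.07 in the fit without the block, and with the block it passed as lower when YEL068C replicate 2 was left out or arrays were not centred. TFG1 differed by -0.10 (limma adjusted p = 0.799, 0.487 with the block), with 0.90 and 0.77 in the reference, 0.83 and 0.49 on the NAM7 arrays, and 0.87 and 0.74 on the NMD2 arrays. All 6 values lay above the array median, and the pools overlapped.

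TAF12 and SRB4 were the only fully measured genes of TFIID and Mediator, and both fell with the block. TAF12, a histone-fold subunit shared by TFIID and the SAGA coactivator, read 0.09 and -0.08 in the reference, -0.32 and -0.66 on the NAM7 arrays, and -0.38 and -0.44 on the NMD2 arrays. Every mutant array was below both reference arrays, while the mutant pools overlapped each other. The difference was -0.45 (SE 0.21, limma adjusted p = 0.218, SE 0.12 and adjusted p = 0.00674 with the block) and nearly the same within arrays numbered 1 (-0.43) and 2 (-0.47). SRB4 (MED17), the scaffold of the Mediator head, read -1.60 and -0.94 in the reference, -2.40 and -1.35 on the NAM7 arrays, and -2.11 and -1.17 on the NMD2 arrays. Reference and mutant arrays overlapped, since the mutant arrays numbered 2 were above the reference array numbered 1. Within a number the mutant pools were lower, by 0.65 and 0.32 on the log2 scale. The difference of -0.49 had an SE of 0.42 (limma adjusted p = 0.496), which became 0.13 with the block (limma adjusted p = 0.00511). Its size depended on single arrays. Without the block it was -0.82 and -0.16 when YEL068C replicates 1 and 2 were left out in turn, -0.22 and -0.75 without NAM7 replicates 1 and 2, and -0.25 without NMD2 replicate 1. With the block it was -0.32 without YEL068C replicate 1.

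For NAM7 and NMD2 each against YEL068C, the same 6 genes passed with the block in both, 3 higher (NCB2, TFA2 and SSL1) and 3 lower (TAF12, MOT1 and SRB4). Both comparisons use the same reference arrays. The NMD2 background was 53.8% of features, of which 28.4% were higher and 25.5% lower. For NAM7 it was 50.7%, made up of 25.7% higher and 25.0% lower. Arrays did not overlap with the reference for 7 of 14 genes in the NMD2 pool, against 51.6% of features, and for 9 of 14 in the NAM7 pool, against 48.4%. Without the block 0 of the 14 passed in either pool by limma, against 0.0% of features in each, while MOT1 in the NMD2 pool (1 of 14 genes, 99 features) and MOT1 and SSL1 in the NAM7 pool (2 of 14, 91 features) had a p under 0.05 before adjustment. With NMD2 deleted MOT1 differed by -0.91, NCB2 by 0.79, TFA2 by 0.60, SSL1 by 0.50, TAF12 by -0.41 and SRB4 by -0.37. The NAM7 pool gave MOT1 at -0.74, SSL1 at 0.72, SRB4 at -0.61, NCB2 at 0.59, TFA2 at 0.56 and TAF12 at -0.49. BUR6 was at 0.33 and 0.31 and RAD3 at -0.36 and -0.33 in the NMD2 and NAM7 pools, none of which passed in this blocked fit. RAD3 passed with the block in both pools when arrays were not centred (limma adjusted p = 0.00808 and 0.0161). In the NMD2 pool it also passed when genes with missing arrays were tested as well (limma adjusted p = 0.036). When 1 of the 6 arrays was left out of the blocked fit, a pool was left with a lone array, so passes are not counted. In those fits the NMD2 difference ran from -0.95 to -0.87 for MOT1 and 0.60 to 0.99 for NCB2. TFA2 ran from 0.52 to 0.68, SSL1 from 0.34 to 0.65, TAF12 from -0.51 to -0.31 and SRB4 from -0.54 to -0.21. The NAM7 difference ran from -0.81 to -0.66 for MOT1, 0.59 to 0.85 for SSL1 and 0.49 to 0.63 for TFA2. For TAF12 it ran from -0.60 to -0.37, for NCB2 from 0.39 to 0.79 and for SRB4 from -0.77 to -0.44. NCB2 was 0.39 in the NAM7 pool without YEL068C replicate 1. With the first-listed probe of each gene, the blocked NMD2 call of TAF12 was lost (limma adjusted p = 0.051) and RAD3 passed (0.049).

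Between the NMD2 and NAM7 pools, these mRNAs showed no difference past the threshold. By limma 0 of the 14 genes passed with or without the block, and 0 had an unadjusted p under 0.05 in either fit. Over all features 0.0% passed in both fits, with 2 and 55 at an unadjusted p under 0.05. The median difference was 0.02 for these genes and 0.02 for all features. SSL1 was the 1 gene whose arrays did not overlap between mutant pools, lower in the NMD2 pool by 0.23 (SE 0.23, limma adjusted p = 1.0, SE 0.15 and adjusted p = 0.509 with the block). Of all features 17.1% did not overlap. A p above the threshold does not show that the pools are equal.

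The study is known for asking how the length of the coding region bears on decay of the extended mRNAs. Gene span, from start to stop codon with any intron included, ran from 429 nucleotides for BUR6 to 5604 for MOT1, with a median of 1464 for the 14 genes and 1470 for all 433 genes with a span. Across the 14 genes the difference was lower at longer span (Spearman's rho = -0.72 for the mean of both pools, -0.65 and -0.60 within arrays numbered 1 and 2). Over all genes rho was -0.62. These are descriptions over genes that share the same 6 arrays. The 5 genes of up to 1000 nucleotides were BUR6, NCB2, TOA1, TFA2 and TFB3, 3 of which rose with the block. Of all genes, 6 of 10 up to 500 nucleotides and 59 of 106 from there to 1000 rose in that fit, a like share. Their classes had medians over all genes of 0.39 (up to 500 nucleotides) and 0.43 (up to 1000). Both genes between 1000 and 1500 nucleotides, SSL1 and CCL1, lay above 0, as did the class median of 0.25. Among the 7 genes over 1500 nucleotides, only TFB2 lay above 0, and none rose with the block. Few genes of these classes rose at all, 11 of 80 up to 2000 nucleotides, 2 of 76 up to 3000 and 0 of 52 above.

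Against a lowess curve of difference on span over all genes, 5 of the 14 lay above it and their median distance was -0.10. TOA1 was the 1 gene of 14 more than 0.5 away, against 22.4% of all genes. At 861 nucleotides it lay 0.64 below the curve, and its -0.24 ranked 95 of 106 from the highest in its class. TAF12 (1620 nucleotides) lay 0.47 below the curve at rank 66 of 80 in its class, BUR6 0.40 below, and TFB3 (966 nucleotides) 0.38 below at rank 88 of 106. SSL1 (1386 nucleotides) lay farthest above, by 0.44, at rank 27 of 109. MOT1, the longest, was 0.11 below the curve and ranked 43 of the 52 genes over 3000 nucleotides, whose median was -0.60. NCB2 (0.06 above), RAD3 (0.07 below) and CCL1 (0.09 below) were closest to it.

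**Figure D3:**
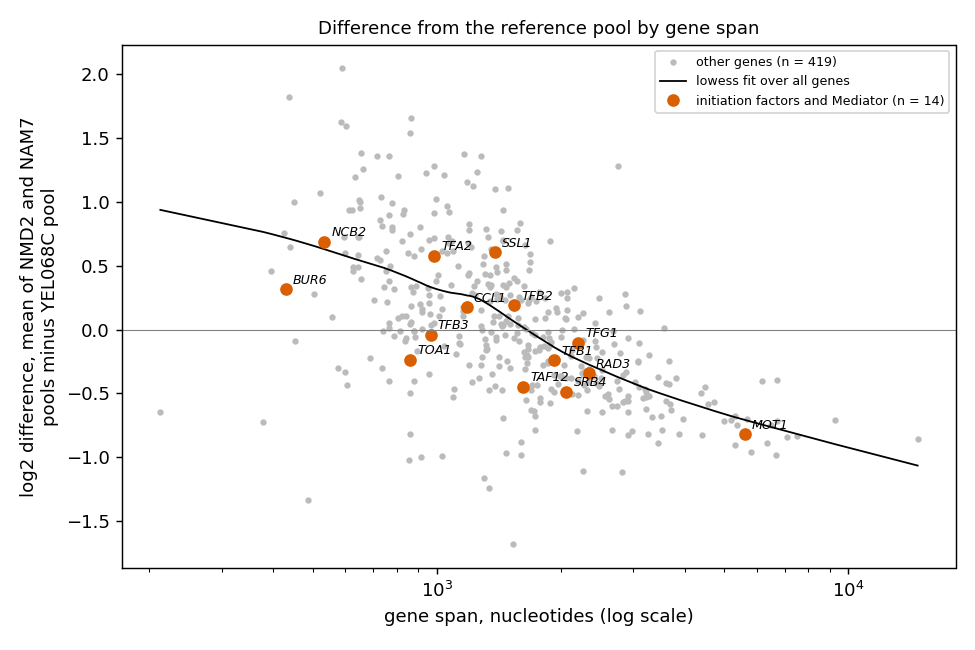
Gene span in nucleotides (x axis, log scale) against the log2 difference between the mean of the mutant pools and the YEL068C pool (y axis). Grey points are the other genes, orange points the 14 initiation factor and Mediator genes, and the line is a lowess fit over all 433 genes. MOT1 at 5604 nucleotides and -0.82 lies near the line, and TOA1 at 861 nucleotides and -0.24 lies well below it.

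A further 11 genes had values on 2 to 5 arrays. Testing genes with at least 1 array per pool, by limma over 587 features, gave 7 of these a test, each without the arrays on which it had no value. None passed without the block. With it the fit called TAF9, TFG2 and NUT2 higher in the mean of the mutant pools and 0 of the 7 lower, against 58.9% of features. Each of these 3 genes had a single reference array, so the calls carry no spread of the reference and their values are given as a description. The background was 55.0% for the NMD2 pool and 50.9% for the NAM7 pool, and between the mutant pools 0 of the 21 genes passed, against 1.53% of features. In that fit every gene had the same residual SD (0.17), so a gene's own spread did not enter its error. TAF9, a histone-fold subunit of TFIID and SAGA, read -0.11 on the 1 reference array with a value, 0.75 and 0.65 on the NAM7 arrays, and 0.37 and 0.58 on the NMD2 arrays. All 4 mutant arrays were higher than the reference array, with a blocked difference of 0.72. TFG2, the TFIIF subunit that pairs with TFG1, read -1.19 on that array, -0.24 and -0.60 on the NAM7 arrays, and -0.79 and -0.60 on the NMD2 arrays. All 4 mutant arrays were again higher, with a blocked difference of 0.59.

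NUT2 (MED10) of the Mediator middle had the widest spread. It read -2.18 on its 1 reference array, numbered 2, then -1.79 and -0.24 on the NAM7 arrays, and -1.44 and -0.15 on the NMD2 arrays. The mutant arrays numbered 2 were thus far above the reference array of the same number, while the mutant arrays numbered 1 were nearer to it. The difference was 1.98 with the block and 1.23 without it, and the blocked value takes the spread between numbers from the mutant pools alone. MED7, also of the Mediator middle, read -2.08 on its reference array, -1.77 and -2.39 on the NAM7 arrays, and -1.14 and -2.48 on the NMD2 arrays. Its reference array lay within the range of the mutant arrays. The MED7 difference was -0.36 with the block and 0.085 without it, so its sign depended on the block.

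The remaining TFIID genes showed small or untestable differences. TAF4, the histone-fold partner of TAF12, read -0.11 and -0.99 in the reference, -0.22 and -0.98 in the NAM7 pool, and -0.87 on the 1 NMD2 array with a value. Arrays of one number were nearly equal, and the difference was below 0.01 in size with the block and -0.18 without it. TAF6 and TAF11 had values on the arrays numbered 2 only, with 1 array per pool and no spread of their own. TAF6 read -0.09, -0.12 and -0.33 in the YEL068C, NAM7 and NMD2 pools. TAF11 read -1.50, -1.88 and -1.55 in the same order.

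The last 4 genes lacked a whole pool and were not tested, since the fits took genes with an array in every pool. MED6 of the Mediator head read -0.63 and -0.87 in the reference and -0.74 and -1.04 in the NAM7 pool, and had no value on either NMD2 array. In the reference annotation MED6 lies 32.5 kb from NMD2 on the same chromosome. Of 10 features with a value in both other pools and none in the NMD2 pool, 3 lay within 100 kb of NMD2. TAF3 was another of the 10, at 1.19 in the reference and 1.11 in the NAM7 pool on the arrays numbered 2, and is on a different chromosome from NMD2. SRB6 (MED22) of the Mediator head read -0.02 and -0.53 on the NAM7 arrays, and -0.48 and -0.43 on the NMD2 arrays, without a reference value. TOA2, the small subunit of TFIIA, read -0.13 and -0.85 in the NAM7 pool and -0.61 on 1 NMD2 array, also without a reference value. In all, 55 features lacked only the reference pool and 13 only the NAM7 pool, so missing values were most frequent in the reference. Why a value is missing was not tested.

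**Figure D4:**
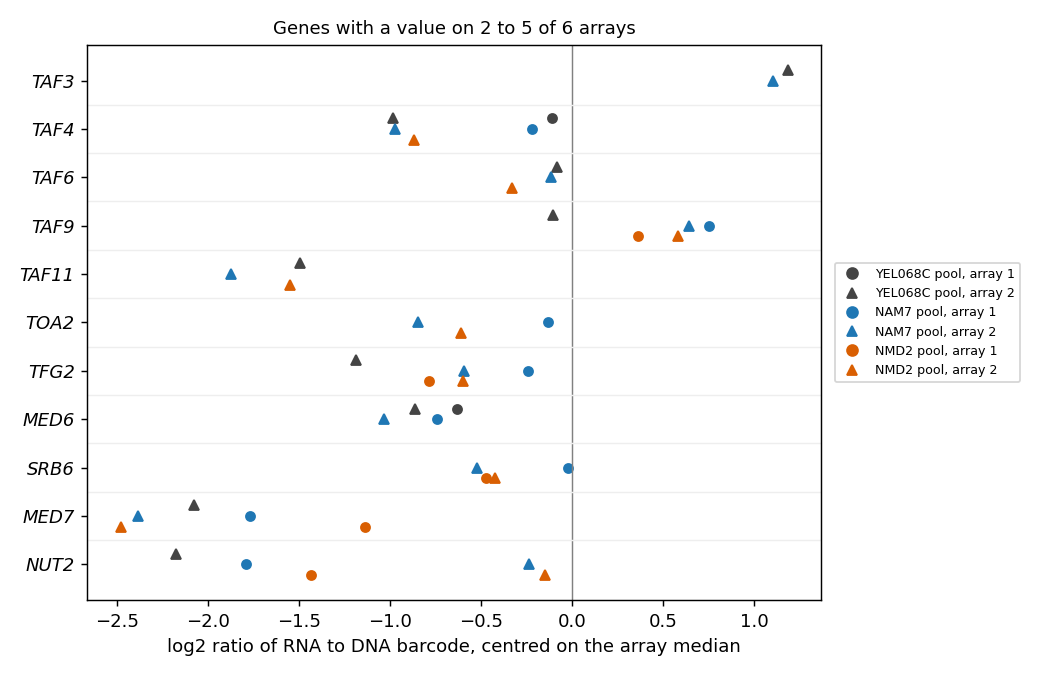
Centred log2 ratio of RNA to DNA barcode (x axis) for the 11 genes with a value on 2 to 5 of the 6 arrays (y axis), with colours for the pools and circles and triangles for arrays numbered 1 and 2. NUT2 spans -2.18 to -0.15, with its mutant arrays split by number, and MED6 has no NMD2 value.

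The same genes also differed between the arrays of one pool. The difference between array 1 and array 2 of a pool ran from -0.77 (NCB2) to 0.62 (TOA1) in the reference pool. In the NAM7 pool it ran from -1.06 (SRB4) to 0.81 (TFB3) and in the NMD2 pool from -0.94 (SRB4) to 0.83 (TFB3). Its median size over the 14 genes was 0.30, 0.25 and 0.35 in the YEL068C, NAM7 and NMD2 pools, against 0.40, 0.39 and 0.38 over all features. SRB4, MOT1, NCB2, TFA2, TFB1 and CCL1 were lower on array 1 in all 3 pools. TFB3, TAF12, TOA1 and TFG1 were higher on array 1 in all 3. BUR6, SSL1, RAD3 and TFB2 differed in direction between pools, with TFB2 at 0.57 in the reference and -0.14 and -0.21 in the NAM7 and NMD2 pools.

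**Figure D5:**
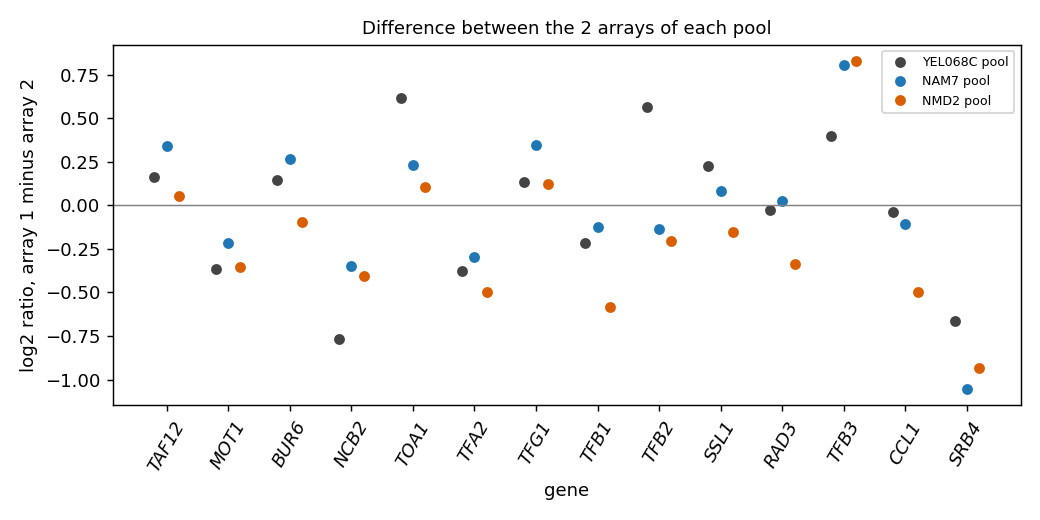
Difference in log2 ratio between the array numbered 1 and the array numbered 2 of a pool (y axis) for 14 genes (x axis), with dark grey for the YEL068C pool, blue for NAM7 and orange for NMD2. SRB4 and TFB3, among the genes that keep their direction in all pools, reach down to -1.06 and up to 0.83.

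Other genes of transcription gave the setting for these values. In the mean of both mutant pools 0 of 16 measured genes of 3 lists passed without the block, against 4.05% of all features. With the block 59.9% of all features passed (29.7% higher, 30.2% lower), and the counts below are read against that share. Among RNA polymerase II subunits outside the list above, 3 of 7 were measured. With the block RPB5 rose by 0.72, while RPB10 (-0.64) and the second-largest subunit gene RPB2 (-0.43) fell. Of 19 genes of elongation, capping, tail phosphorylation and polymerase assembly, 7 were measured, 0 rose and 4 fell with the block. The largest falls were those of the termination helicase gene SEN1 (-0.72), the termination factor gene NRD1 (-0.68) and the tail phosphatase gene FCP1 (-0.51). Of 12 initiation factors of the other polymerases, 6 were measured and 1 fell with the block, the RNA polymerase I factor RRN3 (-0.58). The median differences of these lists were -0.43, -0.45 and -0.08. They were not set against gene span, although the difference was lower at longer span over all genes. SEN1 spans 6696 nucleotides, RPB2 3675, FCP1 2199, RRN3 1884 and NRD1 1728, while RPB5 spans 648 and RPB10 213.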

How the data were processed

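Barcodes from RNA (Cy3) and genomic DNA (Cy5) were hybridised together on 6 arrays, per the labels' protocols. The authors deposited 1 table of 15743 probe rows. The deposited values were made by the authors as ratios between the RNA and DNA signals, per the labels, and are read here as log2 ratios. Neither base nor numerator is stated, and base 2 was inferred from their range. Each deposited column has a median of 0. Background correction and filters are not given in the sources used here. Depth and signal over background are unknown, and the small number of arrays limits precision. A value was present for 843 probes, of which 827 have 1 gene symbol, 0 several and 16 none in the platform table. The probe table does not separate up from down tags, so all were used. In the description of the series, however, conclusions are meant to rest on up tags. Any value given here may come from a down tag, and the effect of this was not tested.

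The sign was turned. Probes with a value on all 6 arrays (527) were averaged by gene into 444 features, whose median was subtracted from every array. For a gene with missing arrays, the probes valued on an array were averaged. Gene spans and neighbours come from the RefSeq table of assembly R64 (all 46 genes matched). The test was two-sided, from limma 3.58.1 under R 4.3.3, with lmFit, eBayes, 1 term per pool and Benjamini-Hochberg adjustment over all features. It was tested on simulated data. The replicate number as a block was the alternative. Numbers come from the sample titles, and deviations of same-numbered arrays correlated between pools with 0.89, 0.85 and 0.89, so they were treated as pairs. The text names every gene of the list with a value on at least 2 arrays and, from each list of other transcription genes, up to 3 each way with the largest difference past the threshold. The members, lists and tests were chosen with earlier results of these data known.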

Additional observations from a re-analysis of the deposited data

How the results depend on the processing

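Without the block, 0 of the 14 genes passed in any comparison under every alternative run, and between the mutant pools 0 passed with it too. With the replicate block the counts were 3 higher and 3 lower for NMD2, 3 and 3 for NAM7 and 4 and 4 for their mean. Of all features, 53.8%, 50.7% and 59.9% passed in either direction, in the same order. The first-listed probe gave 3 and 3, 3 and 3, and 4 and 4, but for NMD2 TAF12 was lost and RAD3 gained. Combinations of the block with another choice were added after the data were seen. Without centring, which moved the median of all features by -0.12, the block gave 3 and 5, 3 and 5, and 3 and 6. Arrays scaled to equal spread gave 3 and 2, 3 and 3, and 3 and 3. Testing every gene with an array in each pool (21 genes) gave 5 and 4, 6 and 3, and 6 and 4. In that fit 55.0%, 50.9% and 58.9% of all features passed in either direction. For the other choices made with the block the share of all features is not given here, so their counts are no result about these genes. Leaving out 1 array leaves its pool with a lone array, so the counts of those fits with the block are not compared here.

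Every single-gene value that passed in place of missing the threshold came from a fit with the block. Many features passed in those fits, so such passes are no result about these genes. Of 651 single-gene values under 21 alternatives, 12 changed sign. Those 12 belong to TFB3, which was 0.022 in the mean with arrays scaled to equal spread, with or without the replicate block, and -0.25 to 0.17 without 1 array, TFB2 (-0.18 to 0.56), TOA1 (-0.54 to 0.072) and, in the NMD2 pool, SRB4 (-0.84 to 0.10). The cause was not tested. The median level in the YEL068C pool was -0.55 without centring. Spearman's rho between span and difference was -0.66 with arrays scaled to equal spread and -0.75 to -0.53 without 1 array. Protein length in place of span was not run.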

Other observations

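Of the 25 genes, 5 had a value from 2 probes, whose tag type (up or down) is not known here. The probes differed by a median of 0.03 for TAF12, 0.01 for NCB2, 0.08 for TFB3 and 0.04 for SRB6, and by at most 0.21 on any array (NCB2). TFB1 had a second probe valued on 4 arrays, which differed from the probe used by at most 0.13.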
